A study of Mus musculus with 2 samples.

Results

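The levels and transcript forms of 8 genes of the middle of the sarcomere, Mybpc1, Mybpc2, Mybpc3, Mybph, Myom1, Myom2, Myom3 and Obsl1, were followed in long-read RNA sequencing of the mouse gastrocnemius, a mostly fast muscle of the calf. The members were the rows of both transcript tables that carry 1 of these gene names, and 7 of the 8 had reads, among 15622 annotated genes with reads in all. They made up 552 of 79323 transcript models in replicate 1 and 287 of 90517 in replicate 2. The tissue came from male mice of the F1 strain B6CASTF1/J, a cross of C57BL/6J and CAST/EiJ, aged 25 days, and 2 µg of total RNA went into each library. The series has 1 group of 2 biological replicates, with no treatment and no second condition, so no comparison tests a condition. Each comparison sets library 1 against library 2 with counting error alone.

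Myosin-binding protein C lies along the thick filament in the cross-bridge zone of the sarcomere, where it binds myosin and actin and tunes contraction. There are 3 genes for it: Mybpc1 (the slow form), Mybpc2 (the fast form) and Mybpc3 (the cardiac form), and Mybph encodes a shorter relative, myosin-binding protein H. Myomesin (Myom1), M-protein (Myom2) and myomesin-3 (Myom3) crosslink thick filaments and titin at the M-band, and obscurin-like 1 (Obsl1) binds titin and myomesin there. M-protein is known as a mark of fast fibres, while myomesin is found in all striated muscle.

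The exons whose use is described below are shown with the exon in capitals and the neighbouring exon bases of the same transcript in lower case, 5′ to 3′, from the GENCODE M21 transcripts on mm10. The first is a 42-nt coding exon near the 5′ end of Mybpc1 (chr10:88582007-88582048, minus strand, in Mybpc1-202), shown because its use splits the Mybpc1 reads into forms. The second is a 59-nt coding exon near the 3′ end of Mybpc1 (chr10:88521277-88521335, minus strand, in Mybpc1-201), which shifts the reading frame and moves the stop codon. The third is a rare 54-nt coding exon in the middle of Mybpc1 (chr10:88537466-88537519, minus strand, in Mybpc1-206). The last is the 294-nt coding exon that sets Myom1-202 apart from Myom1-203 (chr17:71082203-71082496, plus strand).
Mybpc1 42-nt exon: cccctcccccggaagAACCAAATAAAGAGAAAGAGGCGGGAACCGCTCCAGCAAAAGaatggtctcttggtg
Mybpc1 59-nt exon: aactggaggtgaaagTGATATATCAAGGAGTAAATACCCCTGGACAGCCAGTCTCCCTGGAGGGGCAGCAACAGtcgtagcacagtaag
Mybpc1 54-nt exon: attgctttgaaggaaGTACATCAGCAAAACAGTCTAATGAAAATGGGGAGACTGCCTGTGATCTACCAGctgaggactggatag
Myom1 294-nt exon: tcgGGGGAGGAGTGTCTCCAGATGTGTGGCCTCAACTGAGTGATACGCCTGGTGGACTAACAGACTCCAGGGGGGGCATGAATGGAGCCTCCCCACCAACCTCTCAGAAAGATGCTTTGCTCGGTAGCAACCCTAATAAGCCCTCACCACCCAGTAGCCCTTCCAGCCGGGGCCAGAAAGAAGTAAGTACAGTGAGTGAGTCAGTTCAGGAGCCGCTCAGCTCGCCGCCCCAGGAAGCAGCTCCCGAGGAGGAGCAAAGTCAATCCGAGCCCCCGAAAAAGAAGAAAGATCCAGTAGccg
The start of the last exon of Mybph is shown because 2 acceptors 3 nt apart were used there. Its capitals are the 3 bases that the upstream acceptor adds (chr1:134200945-134200947, plus strand), and the lower-case bases before them are the end of the intron, as read from Mybph-202, which keeps that intron.
Mybph last acceptor: cactatctcttctagCAGcttggtcacata

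Replicate 1 held 1215785 reads in annotated genes and replicate 2 held 1549606. A level is given as CPM, a gene's reads for every 1000000 reads on annotated genes; each long read was assigned whole to 1 transcript model, not cut into fragments, so levels were not divided by transcript length. A gene without reads lay under 2.47 CPM in replicate 1 and 1.94 CPM in replicate 2, the limits set by 3 counts. The libraries differed in the classes of their reads: annotated transcripts took 65.8% of gene reads in replicate 1 and 70.6% in replicate 2, incomplete splice matches 9.28% and 15.6%, and models of a single exon 5.10% and 14.1%. The 6 markers fixed for fast muscle were all detected, with sums of 172685 CPM in replicate 1 and 160361 in replicate 2. Acta1 (86730 reads in replicate 1, 102245 in replicate 2) and Ckm (83546 and 107548) held most of these sums. The other 4 did not go together: Myh4 had 29017 reads in replicate 1 and 15234 in replicate 2. Tnnt3 had 2388 and 6066, Tnni2 5168 and 8996, and Pvalb 3099 and 8408. The 5 slow markers were all detected and summed to 2091 and 7035 CPM, and the 5 fibroblast markers to 4567 and 900 CPM. Members of a list did not all go with its sum: Tnnt1 had 699 reads in replicate 1 and 7588 in replicate 2 while Myh7 had 1216 and 418, and Col1a1 had 2976 and 433 while Pdgfra had 5 and 7. Of the 5 heart markers, 2 were detected in replicate 1 and 1 in replicate 2, with sums of 4.11 and 1.29 CPM, and Nppa, Ryr2 and Myl7 were at 0. The part of fibroblast, fast-fibre or slow-fibre content in the values below was not tested.

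Fast myosin-binding protein C was the most abundant member in both libraries, and the cardiac gene was not detected. Mybpc2 (ENSMUSG00000038670.11, chr7:44501699-44524656, minus strand) had 8647 reads and 7112 CPM in replicate 1, against 2779 reads and 1793 CPM in replicate 2, a mean of 4453 ± 3761 CPM (SD, n = 2). It ranked 15 among all genes in replicate 1 and 64 in replicate 2. Mybpc1 (ENSMUSG00000020061.17, chr10:88518279-88605152, minus strand) had 2093 reads and 1722 CPM in replicate 1, against 493 reads and 318 CPM in replicate 2, a mean of 1020 ± 992 CPM (SD, n = 2). Mybpc3 (ENSMUSG00000002100.15, chr2:91118144-91136516, plus strand) had 0 reads in both libraries. Of the reads on the 3 C-protein genes, Mybpc2 took 80.5% (95% Clopper-Pearson interval 79.8 to 81.3) in replicate 1 and 84.9% (83.7 to 86.1) in replicate 2, and Mybpc1 took the rest. The 0 of 10740 and 0 of 3272 reads of Mybpc3 allow a share of up to 0.0279% in replicate 1 and 0.0917% in replicate 2. The ratio of Mybpc2 to Mybpc1 was 4.13 in replicate 1 and 5.64 in replicate 2. It was 10.1 and 11.1 when only reads on annotated transcripts were counted. Many full-length Mybpc1 reads lay on chains outside the annotation, as described below.

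Within each library, myosin-binding protein H stood below the fast and slow C-proteins. Mybph (ENSMUSG00000042451.12, chr1:134193448-134201232, plus strand) had 453 reads and 373 CPM in replicate 1, against 433 reads and 279 CPM in replicate 2, a mean of 326 ± 65.9 CPM (SD, n = 2). Its rank was 233 in replicate 1 and 403 in replicate 2.

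Of the myomesins, Myom2 and Myom1 were both abundant, and Myom3 was low but above the limit of detection in both libraries. Myom2 (ENSMUSG00000031461.4, chr8:15057653-15133541, plus strand) had 1624 reads and 1336 CPM in replicate 1, against 974 reads and 629 CPM in replicate 2, a mean of 982 ± 500.08 CPM (SD, n = 2). Myom1 (ENSMUSG00000024049.15, chr17:71002633-71126856, plus strand) had 899 reads and 739 CPM in replicate 1, against 886 reads and 572 CPM in replicate 2, a mean of 656 ± 119 CPM (SD, n = 2). Myom3 (ENSMUSG00000037139.15, chr4:135759715-135815564, plus strand) had 18 reads and 14.8 CPM in replicate 1, against 12 reads and 7.74 CPM in replicate 2, a mean of 11.3 ± 4.99 CPM (SD, n = 2). Myom2 took 63.9% of the myomesin reads in replicate 1 and 52.0% in replicate 2, Myom1 35.4% and 47.3%, and Myom3 0.708% and 0.641%. The ratio of Myom2 to Myom1 was 1.81 in replicate 1 and 1.10 in replicate 2. Counted on annotated transcripts alone it was 2.32 in replicate 1 and 3.62 in replicate 2, so the library with the higher ratio changed with the classes counted. Obsl1 (ENSMUSG00000026211.17, chr1:75479310-75506452, minus strand) had 19 reads and 15.6 CPM in replicate 1, against 9 reads and 5.81 CPM in replicate 2, a mean of 10.7 ± 6.94 CPM (SD, n = 2).

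By mean level over reads of all classes, the order was Mybpc2, Mybpc1, Myom2, Myom1, Mybph, Myom3, Obsl1 and Mybpc3. Mybpc2 lay above every other member in both libraries without overlap. Over all classes the ranges of Mybpc1, Myom2 and Myom1 over the 2 libraries overlapped. Within each library Myom2 lay above Myom1, at 1336 against 739 CPM in replicate 1 and 629 against 572 CPM in replicate 2. Mybpc1 lay above both in replicate 1 and below both in replicate 2. The lower value of Mybpc1, 318 CPM, lay within the range of Mybph. Without incomplete and genomic reads Mybpc1 lay above both in each library. It had 1918 reads in replicate 1, against 1200 for Myom2 and 511 for Myom1, and in replicate 2 these were 358, 140 and 41. On annotated transcripts alone Mybpc1 had 705 and 126 reads, Myom2 1110 and 123, and Myom1 479 and 34. Counted over all classes, Mybph lay below Myom1 and Myom2 without overlap. On annotated transcripts alone Mybph had 103 reads in replicate 2, above the 34 of Myom1 and below the 123 of Myom2. In replicate 1 it had 189, below the 479 of Myom1 and 1110 of Myom2. Adding the reads deposited as new chains in replicate 2, 56 for Mybph, 17 for Myom2 and 7 for Myom1, put Mybph above both. Myom3 and Obsl1 overlapped each other and lay between Mybph and the undetected Mybpc3. In bulk tissue, fewer cells of a type and less RNA per cell cannot be told apart.

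**Figure D1:**
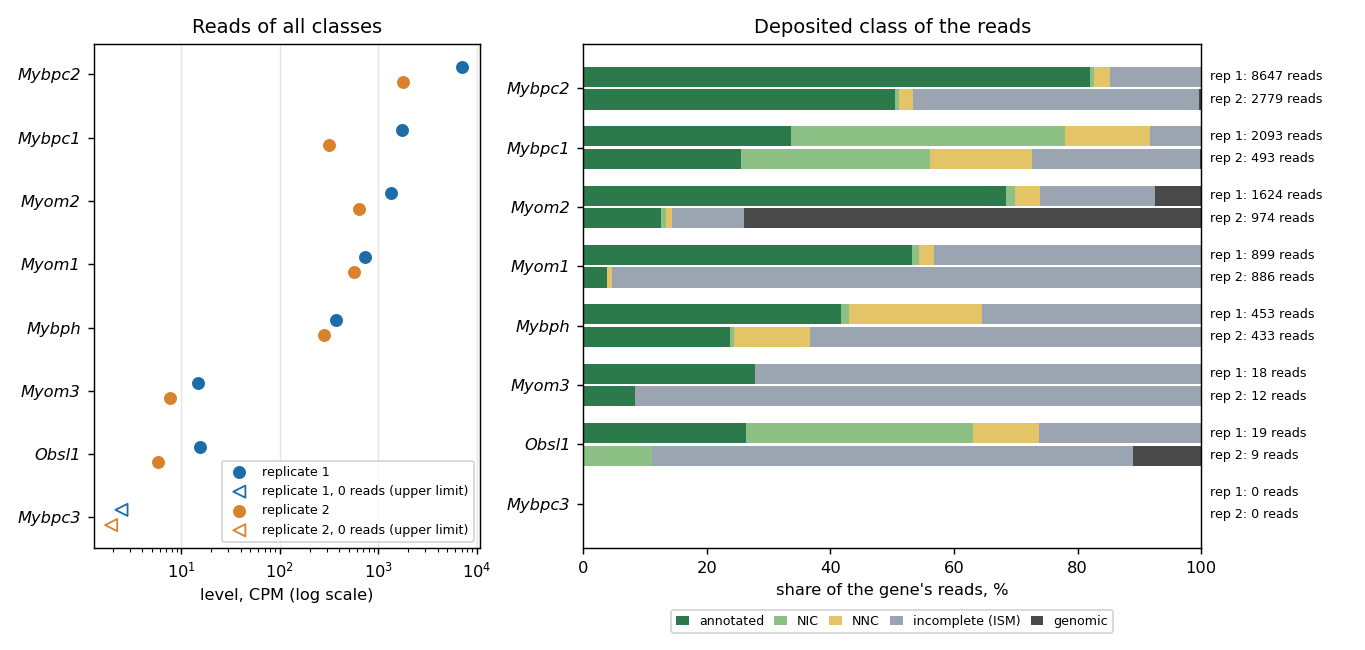
Left, the level of each member in CPM on a log axis, 1 point per library, with open triangles at the upper limit set by 3 counts where a library had 0 reads. Right, the share of each gene's reads in the deposited classes, replicate 1 above replicate 2: annotated transcript, new combination of known splice sites (NIC), chain with a new splice site (NNC), incomplete splice match (ISM) and genomic. Mybpc2 is the highest member in both libraries, Mybpc1 has the largest NIC and NNC share of the 5 abundant members, and the annotated share of Myom1 and Myom2 is small in replicate 2.

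Of the 7 members tested, 6 differed between the libraries, each with more CPM in replicate 1, and 0 were lower. Each gene's reads were set against all other gene reads by a two-sided Fisher exact test with Benjamini-Hochberg adjustment over 8692 genes. Of all genes 26.3% were called higher in replicate 1 and 17.0% lower, and the median log2 ratio of replicate 1 over replicate 2 was 0.27 over all genes and 1.09 over the 7 members. Among genes with 50 or more reads in each library, the share called higher rose with the length of the reference transcript, the annotated 1 with most reads. It was 11.3% at 1000 to 2000 nt, 61.1% at 3000 to 4000 nt and 63.3% at 4000 to 8000 nt. The reference transcript is 1828 nt long for Mybph and between 3611 and 5679 nt for the other members tested. Mybpc1 had the largest ratio of the members, 2.43 ± 0.07 (log2, counting error), and Mybpc2 had 1.99 ± 0.03; the adjusted p of both is below the smallest number that double precision holds. Myom2 had a log2 ratio of 1.09 ± 0.06 (Fisher exact test, adjusted p = 1.73e-78). Mybph had 0.41 ± 0.10 (Fisher exact test, adjusted p = 1.04e-04), Myom1 0.37 ± 0.07 (adjusted p = 4.65e-07) and Obsl1 1.29 ± 0.58 (adjusted p = 0.0321). Myom3, with 30 reads in all, had 0.85 ± 0.54 and did not pass (adjusted p = 0.172).

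These calls weigh counting error only, and 43.3% of all genes were called, so they say that 2 libraries differ and not that any group does. With edgeR's TMM scaling, which shifts log2 ratios by -0.29, Mybph stood at 0.12 (adjusted p = 0.337), Myom1 at 0.08 (0.387) and Obsl1 at 1.03 (0.118), and none of these 3 passed. With edgeR's exact test and a coefficient of variation of 0.4 set for the animals, none of the 7 members passed, with adjusted p between 0.409 for Mybpc1 and 0.940 for Myom1.

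The difference between the libraries was not the same for all parts of a long transcript. Among all genes with 50 or more reads in each library, the median log2 ratio was -1.15 for reference transcripts under 1000 nt and 0.83 for those of 4000 to 8000 nt. Myom1, with a reference transcript of 5316 nt, stood at 0.37 over all its reads, but at 4.03 over the reads that held its first intron (416 CPM in replicate 1, 24.5 CPM in replicate 2). Myom2 (5075 nt) stood at 1.09 over all reads and 3.48 over those with the first intron (962 CPM in replicate 1, 85.2 CPM in replicate 2). For both genes the libraries lay farther apart over first-intron reads than over all reads. For Mybpc2 (3611 nt) the 2 values were 1.99 and 2.67, for Mybpc1 (3922 nt) 2.43 and 2.78, and for Mybph (1828 nt) 0.41 and 1.21.

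**Figure D2:**
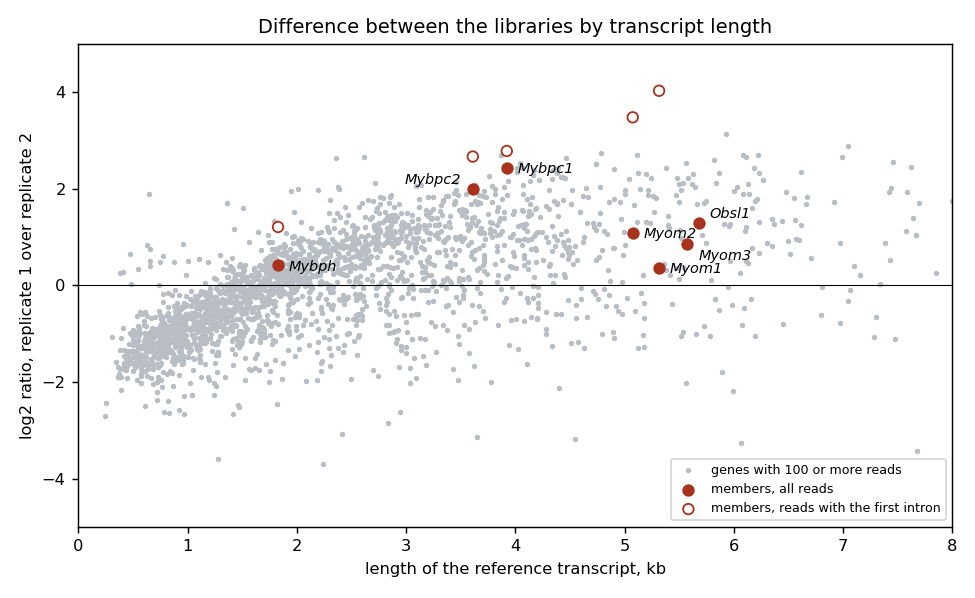
Log2 ratio of CPM, replicate 1 over replicate 2, against the length of the reference transcript in kb, for genes with 100 or more reads (grey) and the members with reads (filled red). Open circles give the ratio over reads with the first intron for the 5 abundant members. The open circles of Myom1 and Myom2 lie at 4.03 and 3.48, well above their filled points at 0.37 and 1.09.

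Most Myom1 and Myom2 reads of replicate 2 were single stretches of the last exon. For Myom1, 141 of 899 reads (15.7%) of replicate 1 lay on 1 unspliced model of the last exon, against 751 of 886 reads (84.8%) of replicate 2. For Myom2, an unspliced model of 676 nt inside the last exon (chr8:15132645-15133320), deposited in the genomic class, took 122 reads (7.51%) in replicate 1 and 720 reads (73.9%) in replicate 2. Both models begin at the first base of the annotated last exon, so as models they carry the end of the coding sequence. Where the single reads on these models begin and end was not examined. The Myom1 model also runs through the 3′ UTR. The Myom2 model holds part of it, since the annotated exon ends at 15133541. The medians over the 210 genes with reference transcripts of 4000 to 8000 nt were 4.12% single-exon reads in replicate 1 and 20.9% in replicate 2. Single-exon reads made up 9.05% of Mybph reads in replicate 1 and 31.2% in replicate 2. They made up 0.382% of Mybpc1 reads in replicate 1 and 6.49% in replicate 2, and 0.0347% and 0.396% of Mybpc2 reads.

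The full intron chain was held by a larger share of reads in replicate 1 than in replicate 2 for each of the 5 abundant members. The full chain of 27 introns of Mybpc2-201 was held by 82.0% of Mybpc2 reads in replicate 1 and 50.5% in replicate 2, and the last intron by 99.7% and 99.3%. The first intron of Mybpc1-202 was held by 92.0% of Mybpc1 reads in replicate 1 and 72.0% in replicate 2. For Myom2-201, with 36 introns, the first intron was held by 72.0% of reads in replicate 1 and 13.6% in replicate 2. For Myom1-203, also with 36 introns, it was held by 56.3% and 4.29%. The annotated share of Myom1 was 53.3% (95% interval 49.96 to 56.6) in replicate 1 and 3.84% (2.67 to 5.32) in replicate 2, against medians of 76.5% and 47.1% over genes of 4000 to 8000 nt. Myom3 and Obsl1 had 5 full-length reads each in replicate 1, on Myom3-201 and Obsl1-202, and 0 on these transcripts in replicate 2. There, 1 Myom3 read lay on the shorter annotated chain of Myom3-203, with 12 introns.

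**Figure D3:**
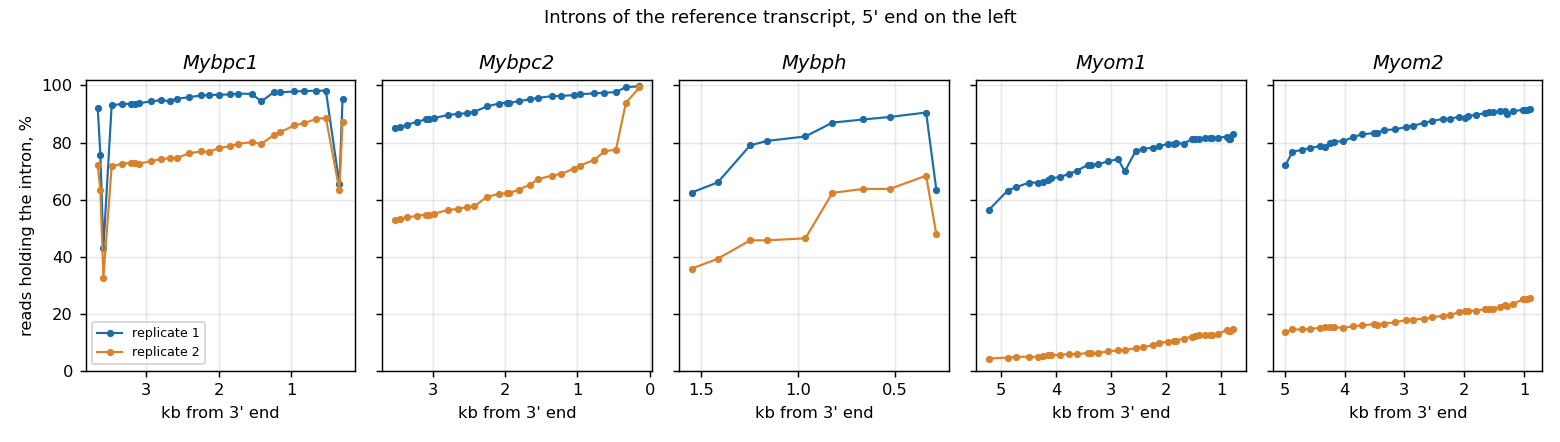
Share of a gene's reads, in percent, that hold each intron of the reference transcript, against the distance of the intron from the 3′ end in kb, 5′ end on the left, for replicate 1 (blue) and replicate 2 (orange). The dips at the ends of Mybpc1 and before the end of Mybph are introns with an alternative choice of exon or acceptor. For Myom1 and Myom2 no intron of the profile is held by more than 25.5% of reads in replicate 2.

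Most full-length Mybpc1 reads followed exon chains that are in no M21 transcript. Reads on annotated or new chains were counted, with single-exon reads and incomplete parts of annotated chains left out. Of these Mybpc1 reads, 63.6% (95% interval 61.4 to 65.7) in replicate 1 and 65.2% (60.04 to 70.1) in replicate 2 were on new chains. That was above 95.2% of 1430 genes in replicate 1 and 95.0% in replicate 2, where the medians were 3.24% and 3.72%. Mybph followed with 41.3% and 48.2%, Myom2 had 10.7% and 12.1%, and Mybpc2 4.15% and 5.71%. Incomplete reads that hold a splice site outside M21 stayed in these shares as new chains. For Mybph they included chains of 8 introns (16 reads in replicate 1, 6 in replicate 2) and 5 introns (7 and 16 reads). Its full chain with a site outside M21 had 80 and 45 reads, against 189 and 103 for Mybph-201. The new Mybpc1 chains recurred: 90.0% of their reads in replicate 1 and 90.7% in replicate 2 were on chains found in both libraries. Of the annotated chains, Mybpc1-202 was read 689 times in replicate 1 and 126 times in replicate 2, and Mybpc1-201 16 times and 0 times. The 3 leading new chains had 331 and 60 reads (31 introns), 248 and 67 reads (30 introns) and 261 and 31 reads (27 introns). The deposited class did not separate new splice sites from new combinations for this gene: of the Mybpc1 reads labelled NIC, 489 of 927 (52.8%) in replicate 1 and 93 of 151 (61.6%) in replicate 2 used a splice site outside M21. Over all genes the share was 16.9% in replicate 1 and 22.6% in replicate 2. For Mybpc2 it was 60.0% (33 of 55 reads) and 86.7% (13 of 15).

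At the 5′ end of Mybpc1, where alternative exons of the protein's N-terminal region are known, 3 short exons gave 4 main forms. They are the 42-nt exon shown above and 2 exons of 36 nt (chr10:88575129-88575164) and 39 nt (chr10:88575842-88575880) that lie in no M21 transcript. All 3 lengths are multiples of 3. Reads over the whole region numbered 1933 in replicate 1 and 350 in replicate 2. The 42-nt exon alone was in 46.6% (95% interval 44.3 to 48.8) of them in replicate 1 and 45.4% (40.1 to 50.8) in replicate 2. All 3 exons were in 35.1% (32.9 to 37.2) and 42.6% (37.3 to 47.9), and none of them in 14.6% (13.04 to 16.2) and 9.14% (6.34 to 12.7). The 36- and 39-nt exons without the 42-nt exon were in 2.95% and 2.57%. The 36-nt exon was in 98.9% of 750 reads in replicate 1 and 100% of 160 in replicate 2 that held the 39-nt exon next to it, so the 2 went together. The 42-nt exon was in 76.1% of replicate 1 reads and 83.2% of replicate 2 reads that lacked both of these exons, and in 91.3% and 94.4% of reads that held the 39-nt exon.

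At the 3′ end of Mybpc1, 43- and 59-nt exons gave 3 forms. In Mybpc1-202 the 43-nt exon follows directly and holds the last 11 coding nt, and in Mybpc1-201 the 59-nt exon comes before it and leaves 3 coding nt there, so the stop codon is reached in another frame. Of 2057 reads over the region in replicate 1 and 447 in replicate 2, 66.5% (64.4 to 68.5) and 69.8% (65.3 to 74.02) had the 43-nt exon alone. Both exons were in 29.9% (27.97 to 31.98) in replicate 1 and 24.8% (20.9 to 29.1) in replicate 2, and neither in 3.06% and 4.92%. The 59-nt exon is annotated in Mybpc1-201, whose full chain had 16 reads in replicate 1 and 0 in replicate 2, against 616 and 111 reads with both exons. On annotated chains alone its inclusion averaged 1.13%, against 28.6% over all reads.

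The share of reads with the 59-nt exon differed with the N-terminal form of the same molecule. Reads over both regions numbered 1911 in replicate 1 and 344 in replicate 2. Of those with all 3 short exons, 53.5% (95% interval 49.6 to 57.3, 360 of 673 reads) in replicate 1 and 42.3% (34.2 to 50.6, 63 of 149) in replicate 2 also held the 59-nt exon. Of those with the 42-nt exon alone, 18.8% (16.3 to 21.6, 167 of 886) and 14.2% (9.11 to 20.7, 22 of 155) held it. Of those with none of the short exons, 5.71% (3.30 to 9.11, 16 of 280) in replicate 1 and 0 of 31 (0 to 11.2%) in replicate 2 held it. Of reads with the 36- and 39-nt exons and not the 42-nt exon, 32.1% (18 of 56) in replicate 1 and 0 of 9 in replicate 2 held it, too few reads to place that form. The order of the other 3 forms was the same in both libraries, and the intervals of the first 2 forms did not overlap in either. The difference between all 3 short exons and the 42-nt exon alone was 34.6 percentage points in replicate 1 and 28.1 in replicate 2. The form with neither 3′ exon was on 7.73% of reads with all 3 short exons in replicate 1 and 10.7% in replicate 2, against 0.339% and 0% of reads with the 42-nt exon alone. Of the 12 possible combinations of 4 N-terminal and 3 C-terminal forms, 11 were found in replicate 1, 7 in replicate 2 and 7 in both.

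**Figure D4:**
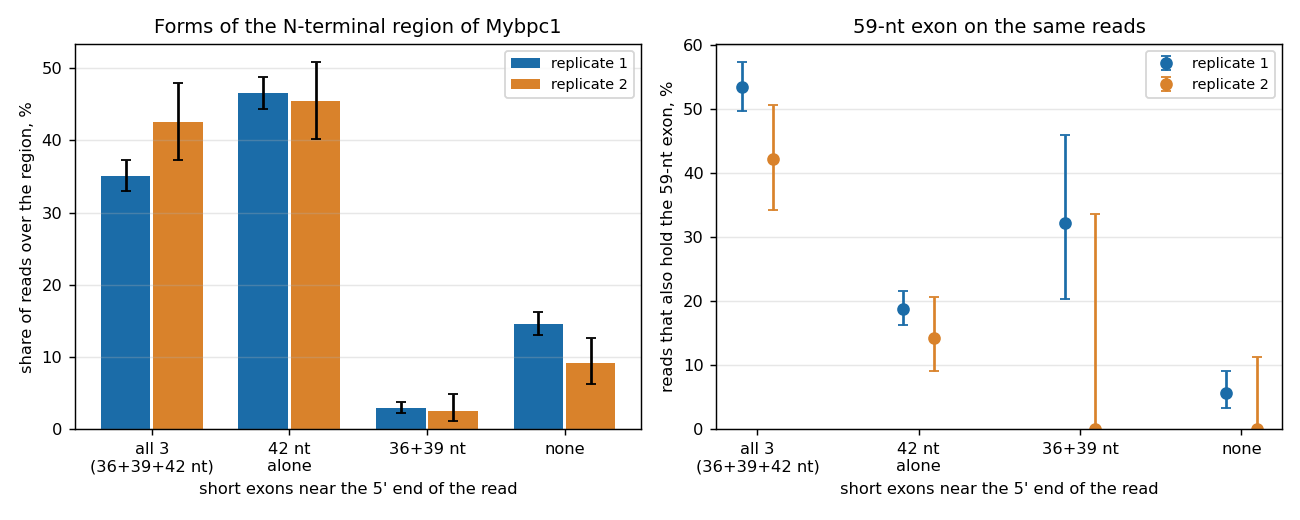
Left, the share of Mybpc1 reads over the N-terminal region with each combination of the 36-, 39- and 42-nt exons. Right, the share of reads of each N-terminal form that also hold the 59-nt exon at the 3′ end. Bars and points are single libraries (replicate 1 blue, replicate 2 orange) with 95% Clopper-Pearson intervals. With all 3 short exons the 59-nt exon is on 53.5% and 42.3% of reads, and with the 42-nt exon alone on 18.8% and 14.2%.

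Inclusion of the members' cassette exons was also compared between the libraries. Over all genes, 5349 cassette exons with 10 or more informative reads in each library entered a two-sided Fisher exact test, and 5 (0.0935%) passed after Benjamini-Hochberg adjustment, 0.0561% with higher inclusion in replicate 1 and 0.0374% with lower. Of the 35 cassette events in the members, 0 passed this Fisher exact test and 3 were under 0.05 without adjustment. Their largest difference was 7.10 percentage points, and the median absolute difference over all genes was 2.01 points. Of the 35, 16 were included in under 2% of reads in both libraries, 11 in over 98%, and 6 lay between these bounds in both. The other 2 were the 54-nt exon of Mybpc1 and its 39-nt exon without the 36- and 42-nt exons, which was in 2.76% of 290 reads in replicate 1 and 0 of 32 in replicate 2. By gene, 15 events were in Mybpc1, 12 in Myom2, 5 in Mybpc2, 2 in Myom1 and 1 in Mybph. The widest difference was that of the 42-nt exon of Mybpc1 without the pair (unadjusted p = 0.0325, Fisher exact test). The 59-nt exon of Mybpc1, where the 43-nt exon was present, was included in 31.05% of 1984 reads in replicate 1 and 26.2% of 423 in replicate 2 (unadjusted p = 0.0542, Fisher exact test). The 43-nt exon, counted without the 59-nt exon, was in 95.6% and 93.4%, and the intron between these exons was kept in 7 of 70 and 2 of 24 reads set against the form with neither. The 54-nt exon was in 2.66% of 2030 reads in replicate 1 and 1.01% of 396 in replicate 2.

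Mybpc2 had 1 main full-length chain. Mybpc2-201 took 7087 reads in replicate 1 and 1404 in replicate 2, and the leading new chain took 24 and 5. The other reads were mainly incomplete parts of its chain, 1250 reads in replicate 1 and 1279 in replicate 2. Of the Mybpc2 reads with a splice site outside M21, 214 of 283 in replicate 1 and 61 of 83 in replicate 2 had each such site within 10 nt of an annotated one. The 3 annotated Mybpc2 exons that were ever skipped were included in over 98% of reads in both libraries.

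Mybph had 2 acceptors 3 nt apart at its last exon, which holds only 3′ UTR. The upstream acceptor, outside M21, was used by 27.9% (95% interval 23.6 to 32.5, 114 of 409 reads) in replicate 1 and 29.5% (24.4 to 35.1, 88 of 298) in replicate 2. The M21 acceptor was used by 70.2% and 69.5%. The letters around them, shown above, hold TAG and then CAG, each directly before 1 of the acceptors. The full chain with the upstream acceptor had 80 reads in replicate 1 and 45 in replicate 2, against 189 and 103 for Mybph-201. The stop codon lies upstream of this intron, so the coding sequence of 1449 nt is the same in both.

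Myom1 was read mainly without the 294-nt exon. It was included in 6.82% (95% interval 5.04 to 9.00, 46 of 674 reads) in replicate 1 and 4.48% (0.933 to 12.5, 3 of 67) in replicate 2. Full chains numbered 446 and 33 for Myom1-203, which lacks it, and 32 and 1 for Myom1-202, which holds it. The exon lies wholly in the coding sequence, which is 5001 nt in Myom1-202 and 4707 nt in Myom1-203. An isoform of myomesin with an inserted segment, EH-myomesin, is known from embryonic heart and slow fibres; the files do not name this exon. Farther 3′, a 23-nt exon of Myom1-202 and Myom1-203 was used by 729 of 740 reads in replicate 1 and 125 of 127 in replicate 2, and the alternative exon of Myom1-201 by 0 in both.

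Myom2 began mainly at 1 first exon. Of the reads that entered the first coding exon, 94.96% (1169 of 1231) in replicate 1 and 94.3% (132 of 140) in replicate 2 came directly from the first exon of Myom2-201. By the same junction, the exon of Myom2-202 gave 28 and 7 reads, that of Myom2-204 17 and 1, and an exon outside M21 17 and 0. These counts do not show where each read began. Some reads through the exon of Myom2-204 also held the first exon of Myom2-201, among them the 1 of replicate 2. In replicate 1, 12 reads with the exon outside M21 came from the exon of Myom2-202. All 4 annotated Myom2 exons that were ever skipped were included in over 98% of reads in both libraries. In Obsl1, a 276-nt coding exon of Obsl1-205 (chr1:75492067-75492342) was included in 8 of 15 reads in replicate 1 and 0 of 2 in replicate 2, too few for a comparison. Counted by its 3′ junction alone, it was joined in 8 of 15 reads in replicate 1 and 1 of 3 in replicate 2.

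The other genes of the thick filament and the M-band on a list of 22 went in both directions in the same comparison. Of 21 tested, 11 were higher in replicate 1 and 4 lower, with 6 not past the threshold and a median log2 ratio of 0.77, beside 26.3%, 17.0% and 0.27 over all genes. These values over all genes were not matched for transcript length. Muscle creatine kinase (Ckm), which buffers ATP at the M-band, had 68718 CPM in replicate 1 and 69403 CPM in replicate 2 (Fisher exact test, adjusted p = 0.0580). The fast myosin light chains Mylpf and Myl1 had log2 ratios of -0.75 and -0.91. The fast myosin heavy chain Myh4 had 23867 CPM in replicate 1 and 9831 CPM in replicate 2, a log2 ratio of 1.28. Titin (Ttn), to which C-protein and myomesin bind, had a log2 ratio of 0.77. The slow myosin heavy chain Myh7 (1.89) and the slow light chains Myl2 (-1.93) and Myl3 (-1.31) stood on opposite sides of 0. The reference transcript of Myh7 is 6135 nt long and that of Myl2 662 nt, and the ratio ran with length over all genes. The part of transcript length in the opposite signs of Myh7, Myl2 and Myl3 was not tested. The heart-type relative Mybphl had 0 reads in both libraries.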

How the data were processed

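Long-read RNA sequencing was analysed in 2 libraries of 1 group. Per the file headers, the deposited values are raw read counts per transcript model, assigned by TALON to GENCODE M21 or to new models on mm10, each library separately. For the aligner, read filters and use of strand, settings were not given in the sources used here. Reads carry 2 parental genomes and were aligned to mm10 alone; its effect on the counts was not tested. Both labels cite the same donor record but name separate animals. Depth was 1292409 reads in replicate 1 and 1703457 in replicate 2.

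Gene levels are the reads of every class over the 1215785 and 1549606 reads in annotated genes. Ratios (log2, CPM + 1) have replicate 1 on top and errors from counting. Genes with 10 or more reads in all, and cassette exons with 10 or more informative reads per library, were compared by two-sided Fisher exact tests with Benjamini-Hochberg adjustment over the whole table and a threshold of 0.05. edgeR's quasi-likelihood test was not used, because 1 group gives no contrast. Intron chains were matched to M21 splice sites anew, since identifiers and classes of new models are made per library. Intervals are 95% Clopper-Pearson, and limits for a count of 0 rest on 3 counts. Reads may be copies of 1 molecule, so intervals, limits and tests cover counting error only. Sequences come from the GENCODE M21 transcripts.

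The members, gene lists and tests were chosen with earlier results of these data known. Named were all members, their leading annotated and new chains, their tested cassette exons, and the 4 most abundant partner genes with those a sentence turns on. Some results are not reported here. The acceptor, first-exon and exon-combination counts were chosen after their values were seen. Alternatives were read filters, classes, pseudocounts, edgeR 4.0.16 TMM, DESeq2 1.42.0 size factors, edgeR's exact test with set variation, and leaving out a library. R 4.3.3, Python 3.11.15, scipy 1.17.1 and pandas 2.3.3 were used. The methods were tested on simulated data.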

Additional observations from a re-analysis of the deposited data

Results flagged for a closer look

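Reads on the strand opposite to 4 members, which no comparison above uses, lay above the 3 counts that a value of 0 allows. Antisense models over Mybpc1 held 4 reads in replicate 1 and 88 in replicate 2, none of them spliced. Over Myom2 they held 5 reads in replicate 1 and 46 in replicate 2, none spliced. Over Myom1 they held 7 and 21 reads, of which 1 and 3 were spliced. Over Mybpc2 they held 0 reads in replicate 1 and 5 in replicate 2. Other genes on the opposite strand added 11 reads over Mybpc1 in replicate 2, on Gm48752, and 4 over Myom1 in replicate 2. The sources used here do not say whether reads keep the strand of the RNA, and the origin of these reads was not tested.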

How the results depend on the processing

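The count of genes that differed between the libraries was 3766 (2286 higher in replicate 1, 1480 lower) and fell to 8 (2 higher) with edgeR's exact test at a coefficient of variation of 0.4. With TMM scaling the split was 1600 higher and 1953 lower, with DESeq2 size factors 1540 and 1995, and with annotated models alone 2429 and 863. The count of cassette exons was 5, and 3 with 5 or more informative reads, of 6937 tested. The mean ratio of Mybpc2 to Mybpc1 was 4.88, and 10.6 on annotated models alone. That of Myom2 to Myom1 was 1.45, against 2.97 on annotated models alone and 2.88 without incomplete and genomic models. Leaving out each library in turn gave 4.13 to 5.64 for Mybpc2 to Mybpc1, 1.10 to 1.81 for Myom2 to Myom1, and 28.1 to 34.6 percentage points for the difference in the 59-nt exon. The Myom2 to Myom1 ratio by class and these last settings were chosen after seeing the data. The cause of these moves was not tested. The log2 ratios of the members kept their sign under the alternatives run, while the excess of genes higher in replicate 1 turned into an excess lower with TMM and DESeq2 scaling. Over the alternatives, the log2 ratio of Mybpc1 ranged between 2.12 and 2.92, of Mybpc2 between 1.67 and 2.79, of Myom2 between 0.77 and 3.61, of Myom1 between 0.05 and 4.22, of Mybph between 0.10 and 1.32 and of Obsl1 between 0.70 and 2.94. Obsl1 also missed the threshold with no filter on low counts (adjusted p = 0.0563, Fisher exact test). No paired analysis was possible because there is 1 group. With 30 reads or fewer, Myom3 and Obsl1 are limited by depth, and the 5′ exons of Myom1 and Myom2 by the few replicate 2 reads that reach them.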
